A study of Mus musculus with 43 samples.

Results

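The comparison reported here asks whether losing RUNX1 and RUNX2 together changed each gene by as much as the separate losses added up, or by more or less. It was drawn from the count table of the knockout cultures, which holds 12 of the 43 libraries of the series. All 12 columns were used, and every gene with enough reads was a member, 13551 of 26264 genes. For each gene the departure from additivity was the log2 level in the double knockout, minus the log2 levels in each of the single knockouts, plus the log2 level in the control. A departure of 0 means that the log2 effects of the knockouts added, that is, that their fold changes multiplied. A negative departure means that the double knockout lay below the additive prediction, and a positive one that it lay above it.

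The series studies RUNX1 and RUNX2 in mouse brown fat and in cultured brown adipocytes. The libraries used here are polyA RNA from a mouse cell line labelled BAT, taken as mature brown adipocytes after brown adipocyte differentiation, on day 7 by their column names. The 4 groups, 3 libraries each, are a wild-type knockout control, a Runx1 knockout, a Runx2 knockout, and a double knockout of Runx1 and Runx2. The sources used here do not say how the knockouts were made, whether each came from 1 clone, or whether the replicates were separate cultures. The p-values therefore measure only the spread between these libraries.

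RUNX proteins are transcription factors that bind DNA through the Runt domain, as a complex with the shared partner CBFB, and can activate or repress a gene depending on the cofactors they recruit. RUNX1 is best known for blood formation and RUNX2 for bone and cartilage. Because both recognise the same short DNA motif, they can share targets, and a target that either factor alone could hold in place would move only when both are lost.

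The mRNA of the targeted genes was read first. Runx1 stood at 2.80, 8.01 and 4.91 counts per 1000000 (CPM, scaled by the trimmed mean of M-values) in the control libraries, and at 4.76, 4.81 and 6.74 CPM in the Runx1 knockouts. In the double knockouts it stood at 3.32, 4.47 and 6.39 CPM. Runx2 stood at 6.82, 7.13 and 9.19 CPM in the controls, at 8.68, 6.83 and 7.32 CPM in the Runx2 knockouts and at 6.07, 8.84 and 7.75 CPM in the double knockouts. Knockout and control values overlapped for both genes, so the mRNA counts do not check the labels: a frame-shifting deletion can leave the amount of mRNA as it was, and the protein was not measured here. The departures of the family genes were -0.37 (95% interval -1.40 to 0.66) for Runx1, -0.28 for Runx2, -0.20 for Runx3 and 0.20 for Cbfb, and none was called.

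One library stood apart. The first double knockout library differed by more than 2-fold from the mean of its other 2 replicates in 2958 genes, 21.8% of those tested, against 2.86% to 6.84% in the other 11 libraries. Its difference went with transcript length: the median log2 difference from its replicates ran from 0.71 among the genes of shortest transcripts to -0.72 among those of longest, with genes ranked by length into 5 groups of like size. The first control library came next by the voom sample weights computed for all 12 (0.0505 for the first double knockout library, 0.259 for the first control, 0.780 to 3.63 for the others). The departures below are therefore given with all 12 libraries and without the first double knockout library, and the main counts also without both libraries. The reruns with libraries left out for this reason were chosen after the data were seen.

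**Figure D1:**
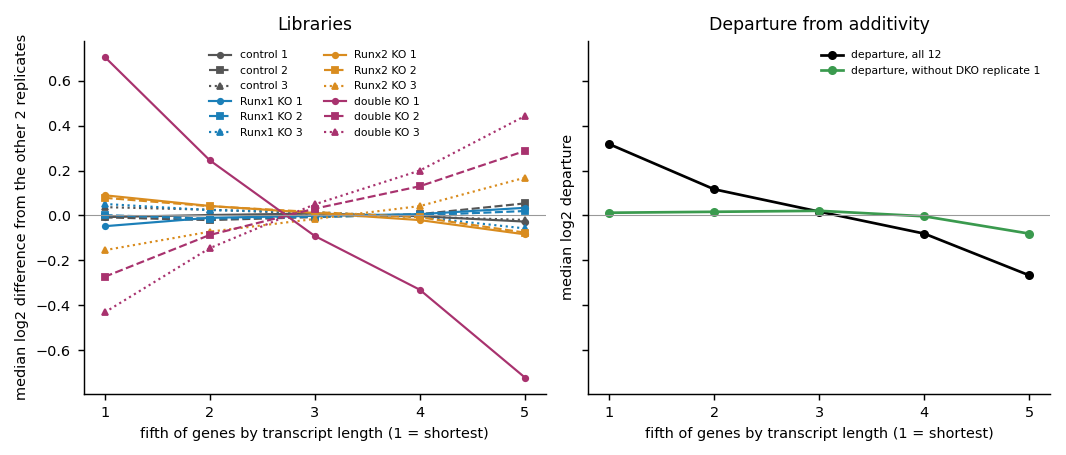
Left, median log2 difference of each library from the other 2 replicates of its group, over 5 groups of genes from the shortest to the longest transcripts; lines are libraries, colours are groups. Right, median log2 departure from additivity in the same groups. The first double knockout library falls from 0.71 to -0.72; the departure falls from 0.32 to -0.27 with all 12 libraries and runs from 0.01 to -0.08 without that library.

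The length trend carried into the departure itself. With all 12 libraries the median departure was 0.32, 0.12, 0.02, -0.08 and -0.27 from the group of shortest to that of longest transcripts, and without the first double knockout library it was 0.01, 0.02, 0.02, -0.00 and -0.08. A gene group that moved with that library was the respiratory chain, whose median departure was 0.53 with all 12 libraries, with 63 of 69 genes above 0, and -0.02 without it, with 33 of 69 above 0. None was called in either fit, and the part of transcript length in this shift was not tested.

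The double knockout changed far more genes than either single knockout. Against the control, edgeR's quasi-likelihood test with Benjamini-Hochberg adjustment called 59 genes in the Runx1 knockout (0.435% of genes tested, 55 higher and 4 lower), 25 in the Runx2 knockout (0.184%, 24 higher and 1 lower), and 2070 in the double knockout (15.3%, with 1120 or 8.27% higher and 950 or 7.01% lower). The summed single effects gave 60 calls (0.443%). The double knockout also differed from the Runx2 knockout in 748 genes (5.52%) and from the Runx1 knockout in 873 (6.44%). Of the 2070 genes, 2008 were called in neither single knockout, which does not by itself show a departure, since 2 uncalled effects can add up to a called one. These counts moved with the libraries fitted: without the first double knockout library they were 386, 364 and 3584 for the Runx1, Runx2 and double knockouts, and with each knockout fitted alone against the control they were 195, 105 and 379.

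The test of the difference itself called few genes with edgeR and all 12 libraries, and the number depended on the libraries and on the test. With all 12 libraries the departure was called in 6 of 13551 genes (0.0443%), 1 above the additive prediction (0.00738%) and 5 below it (0.0369%), while 1495 genes had an unadjusted p under 0.05 and the median departure over all genes was 0.02. Without the first double knockout library it was called in 218 of 13771 genes (1.58%, with 89 or 0.646% above and 129 or 0.937% below), and without that library and the first control in 628 of 13703 (4.58%, with 292 or 2.13% above and 336 or 2.45% below). All 6 genes were among the 218 and among the 628, and 217 of the 218 were among the 628. Leaving out any 1 library other than the first double knockout gave 0 to 7 calls. With all 12 libraries, the DESeq2 test called 202 genes, limma voom 6 and edgeR with a replicate block 1. Voom with sample quality weights, chosen after the data were seen, called 1035. The 6 genes called by edgeR with all 12 libraries are described first.

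**Figure D2:**
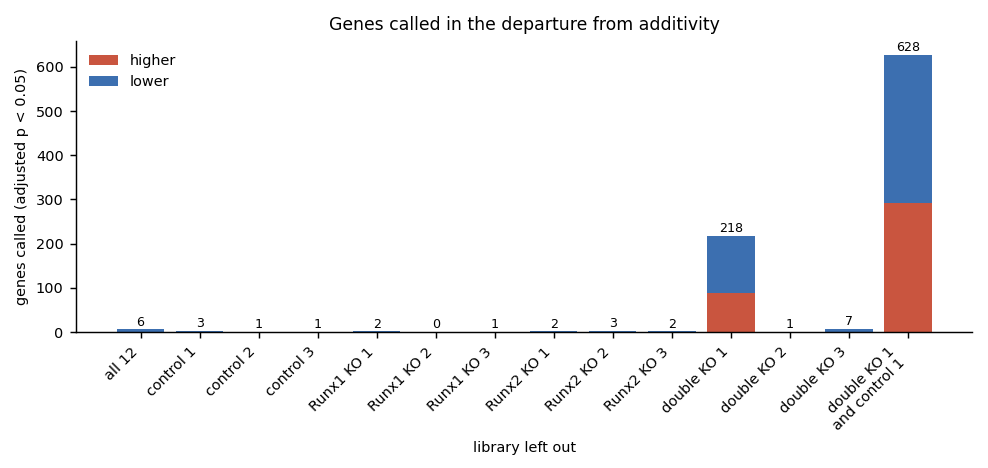
Number of genes called in the departure from additivity (adjusted p under 0.05, edgeR) with all 12 libraries and after leaving out the library named under each bar; red, above the additive prediction; blue, below. The counts are 6 with all libraries, 218 without the first double knockout library, 628 without it and the first control, and at most 7 in the other cases.

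The 6 genes were Pik3ip1, Tcp11l2, Angptl4 and Ddit4, which were called against control in the double knockout only, and Rnf144b and Egr1, which were higher in the single knockouts than in the double. None of the promoter windows available for them holds the core RUNX motif, searched as TGTGGT or TGCGGT on either strand in 300 bases around the start (from 250 before to 50 after). Those windows number 5 for 4 of the 6 genes, and over the 10754 tested genes with a RefSeq promoter the motif is in 20.7% of 13656 windows. It is in 24.1% of the 87 windows of the genes called above the prediction without the first double knockout library, and in 23.9% of the 138 windows of those called below. The 250 bases upstream of the start are shown for the 3 genes with the plainest double-only pattern, and for Lss, a sterol synthesis gene called above the prediction without the first double knockout library, as a contrast that does hold the motif. Sequences are from RefSeq, build GRCm38.p6, 5′ to 3′ on the gene's strand, with the motif in capitals; the count table was made on another build, mm39.
Pik3ip1, chr11:3330481-3330730, + strand: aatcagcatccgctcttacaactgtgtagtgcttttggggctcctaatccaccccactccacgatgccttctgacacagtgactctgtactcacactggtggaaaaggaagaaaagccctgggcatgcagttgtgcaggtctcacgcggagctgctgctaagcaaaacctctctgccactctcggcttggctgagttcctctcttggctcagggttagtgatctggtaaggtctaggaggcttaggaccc
Tcp11l2, chr10:84576697-84576946, + strand: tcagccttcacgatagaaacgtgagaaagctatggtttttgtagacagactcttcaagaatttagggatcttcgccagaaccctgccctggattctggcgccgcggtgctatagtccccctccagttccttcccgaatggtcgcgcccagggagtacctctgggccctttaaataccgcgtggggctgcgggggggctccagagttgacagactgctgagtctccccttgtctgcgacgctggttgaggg
Ddit4, chr10:59951771-59952020, − strand: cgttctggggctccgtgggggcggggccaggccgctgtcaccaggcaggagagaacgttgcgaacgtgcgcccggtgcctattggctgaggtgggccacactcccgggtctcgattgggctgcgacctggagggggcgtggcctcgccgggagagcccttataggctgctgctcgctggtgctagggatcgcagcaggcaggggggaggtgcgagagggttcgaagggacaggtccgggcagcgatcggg
Lss, chr10:76531355-76531604, + strand: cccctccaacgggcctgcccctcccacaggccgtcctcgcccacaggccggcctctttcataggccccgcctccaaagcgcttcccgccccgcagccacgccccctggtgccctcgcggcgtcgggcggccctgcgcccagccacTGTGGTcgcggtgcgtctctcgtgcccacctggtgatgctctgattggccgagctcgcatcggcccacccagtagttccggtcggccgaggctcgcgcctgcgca
A match in these letters is a description and not a measured binding site, and its absence says only that these letters are not in this window.

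Pik3ip1, a membrane protein that restrains PI3-kinase, fell only when both genes were knocked out. Its level was 53.2, 55.2 and 51.3 CPM in the controls, 43.8, 51.6 and 46.4 in the Runx1 knockouts, 44.2, 46.1 and 53.8 in the Runx2 knockouts, and 17.4, 16.4 and 15.9 in the double knockouts. The 3 double knockout libraries lay well below the other 9, which overlapped. The additive prediction was 42.6 CPM, the departure -1.37 (SE 0.16, 95% interval -1.71 to -1.02, edgeR adjusted p = 0.0118), and without the first double knockout library -1.41 (adjusted p = 6.4e-05).

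Tcp11l2, a gene of the TCP11 family, had the same shape. It stood at 47.9, 42.6 and 49.6 CPM in the controls, 49.8, 47.5 and 45.4 in the Runx1 knockouts and 44.7, 50.5 and 42.4 in the Runx2 knockouts, against 21.2, 21.3 and 20.8 CPM in the double knockouts. The double knockout libraries agreed within 1 CPM and did not overlap the others. The departure was -1.15 (SE 0.15, edgeR adjusted p = 0.0177; -1.16 without the first double knockout library).

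Angptl4, a secreted inhibitor of lipoprotein lipase that limits fat uptake from the blood, stood at 213, 210 and 242 CPM in the controls, 270, 284 and 297 in the Runx1 knockouts, 242, 235 and 219 in the Runx2 knockouts and 109, 135 and 136 in the double knockouts. The double knockout libraries lay below the other 9. All 3 Runx1 knockout libraries lay above the controls, but that difference (0.36, log2) was not called, while the double knockout fell by 0.81 on the log2 scale (adjusted p = 8.9e-04). The additive prediction was 297 CPM and the departure -1.23 (SE 0.17, edgeR adjusted p = 0.0177; -1.14 without the first double knockout library).

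Ddit4, also called REDD1, a stress-induced inhibitor of mTORC1, was the 1 gene called above the prediction. It stood at 166, 173 and 172 CPM in the controls, 159, 190 and 162 in the Runx1 knockouts and 162, 163 and 165 in the Runx2 knockouts. In the double knockouts it stood at 350, 381 and 324 CPM. Single knockout and control libraries overlapped, and every double knockout library lay above all of them. The departure was 1.11 (95% interval 0.78 to 1.43, edgeR adjusted p = 0.0177; 1.10 without the first double knockout library).

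Rnf144b, a RING-type E3 ubiquitin ligase, had the reverse order. It rose in both single knockouts, from 21.5, 24.6 and 24.6 CPM in the controls to 41.1, 42.7 and 40.6 without Runx1 and 40.2, 45.6 and 48.1 without Runx2. With both knocked out it stood at 24.1, 28.4 and 27.8 CPM, close to the controls. The single effects were 0.82 and 0.92 (log2, both called), the double effect 0.18 (SE 0.12, adjusted p = 0.30), and the additive prediction 78.6 CPM. Its departure, -1.55 (SE 0.16, 95% interval -1.91 to -1.20, edgeR adjusted p = 0.0075), was the furthest from 0 of the 6 with all 12 libraries (-1.49 without the first double knockout) and stayed past the threshold in 11 of the 12 fits that left out 1 library.

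Egr1, an immediate early zinc-finger transcription factor, stood at 32.5, 43.1 and 43.5 CPM in the controls, 57.0, 63.1 and 54.8 in the Runx1 knockouts, 58.3, 50.4 and 61.3 in the Runx2 knockouts and 29.4, 26.8 and 31.8 in the double knockouts. Each single knockout library lay above every control and each double knockout library below every control. With all 12 libraries none of these differences from control was called, with log2 values of 0.55, 0.51 and -0.43 (the last with an adjusted p of 0.053). All 3 were called without the first double knockout library, at 0.57, 0.52 and -0.43 (edgeR adjusted p = 0.010, 0.018 and 0.021). The double knockout did differ from each single knockout, by -0.95 and -0.99, and the departure was -1.50 (SE 0.20, edgeR adjusted p = 0.0177; -1.51 without the first double knockout library).

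**Figure D3:**
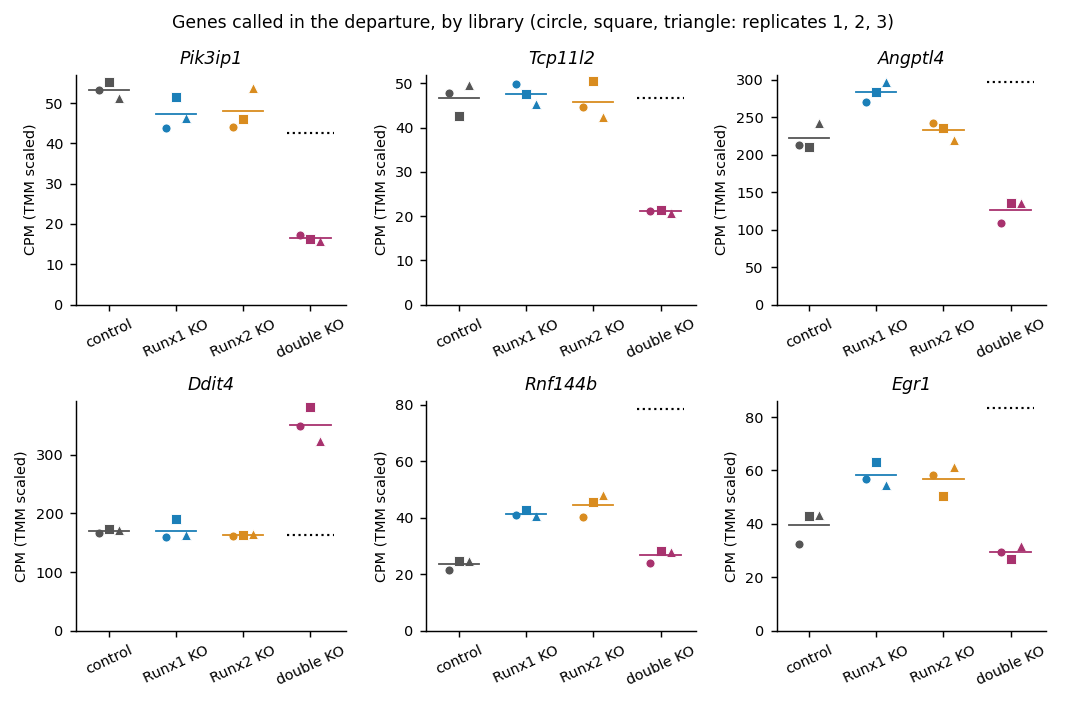
Level (CPM, TMM scaled, linear axis from 0) of the 6 genes called in the departure, by library; circle, square and triangle are replicates 1, 2 and 3, solid bars are group means, and the dotted line is the additive prediction for the double knockout. The double knockout lies apart from the other groups for Pik3ip1, Tcp11l2, Angptl4 and Ddit4, and returns to or below the control level for Rnf144b and Egr1. For Angptl4 the Runx1 knockout also lies above the control.

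Whether the 6 genes were called changed with the libraries fitted more than their values did. Over the 12 fits that left out 1 library, Rnf144b stayed past the threshold in 11, Pik3ip1 in 7, Egr1 in 4, and Angptl4, Tcp11l2 and Ddit4 in 2 each. The departures themselves moved little, from -1.45 to -1.28 for Pik3ip1 and from 1.01 to 1.19 for Ddit4, and kept their direction in all 12. The sign was also the same in 6 of 6 genes when the departure was taken on the CPM scale, where additivity means added amounts rather than multiplied folds. The genes were chosen by their log2 departure in these same libraries, so neither the kept direction nor the shared sign is separate support.

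In the cultures of the same line with RUNX1 or RUNX2 overexpressed (9 libraries in another table, each Runx group against the vector; 54% and 60.9% of genes called), Pik3ip1, Angptl4, Ddit4 and Rnf144b all fell with either factor. Runx1 mRNA also rose in the Runx2 cultures (2.44, log2) and Runx2 mRNA in the Runx1 cultures (0.94), so these cultures do not test each factor alone. Rnf144b changed by -3.02 with Runx1 and by -5.74 with Runx2 (log2), Ddit4 by -1.89 and -2.08, Pik3ip1 by -1.08 and -1.32, and Angptl4 by -1.11 and -1.19. Ddit4 thus fell with either factor overexpressed and rose with both lost, whereas Pik3ip1 and Angptl4 fell in both settings. Egr1 rose by 4.01 with Runx2 and by 0.24 with Runx1 (edgeR adjusted p = 0.032), and Tcp11l2 changed by 0.32 and -0.03, the second not called.

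Additivity was also read among the genes called in the same direction in both single knockouts, 16 genes with all 12 libraries, 15 higher and 1 lower. They were chosen with the control libraries that the departure also uses. Noise in those controls alone would place the double effect short of the sum, so the values are a description. The double knockout was called in the same direction in 15 of the 16, the exception being Rnf144b. Their median log2 effect was 1.46 in each single knockout and 2.18 in the double, against 2.92 for the sum. Gene by gene, the median departure was -0.34 when taken in the direction of the single effects, and 11 of the 16 departures ran against them. The departure was called in 1 of them (0.0443% of all genes were called). In 8 its whole 95% interval lay within 2-fold of additivity, near the share over all genes (53.5%).

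Postn, which encodes the matrix protein periostin, was close to additive. It stood at 29.9, 19.8 and 24.1 CPM in the controls, 60.3, 68.5 and 70.1 in the Runx1 knockouts, 62.8, 71.9 and 61.6 in the Runx2 knockouts and 122, 170 and 201 in the double knockouts. The 4 groups formed 3 levels with no overlap, the single knockouts sharing the middle one, and the departure was -0.10 (95% interval -0.68 to 0.47; 0.06 without the first double knockout library). Otop1, a proton channel gene, also lay at 3 separate levels, from 3.74, 4.82 and 5.15 CPM in the controls to 39.7 to 51.1 in the double knockouts, with a departure of 0.35 (-0.24 to 0.95; 0.45 without that library). The single knockouts lay between, at 10.6 to 16.2 CPM.

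Enpp2, which encodes the secreted lysophospholipase autotaxin, was the 1 gene lower in both. It stood at 190, 173 and 160 CPM in the controls, 100, 105 and 108 without Runx1, 99.6, 110 and 102 without Runx2 and 51.6, 48.0 and 53.6 without both. The single knockouts overlapped each other and lay between the controls and the double knockouts. The log2 effects were -0.74, -0.75 and -1.77, and the departure was -0.28 (-0.60 to 0.03). It was -0.30 without the first double knockout library, not called, and was called without that library and the first control (-0.37, edgeR adjusted p = 0.044). Emp1, a membrane protein gene, stood at 24.2, 25.3 and 26.3 CPM in the controls, 40.4 to 51.2 in the single knockouts and 80.2, 86.5 and 88.9 in the double, with a departure of 0.04 (-0.32 to 0.39; 0.07 without the first double knockout). The metalloreductase gene Steap4, Fabp3, a fatty acid carrier, and Ifit1, an interferon-induced gene, were also called in both single knockouts. Their departures were 0.12, -0.04 and -0.31 with all 12 libraries and 0.18, -0.32 and -0.41 without the first double knockout, with intervals that spanned 0 in both fits.

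At the other end of the 16 genes, the double effect was smaller than a single effect or close to it. Stc2, which encodes the secreted glycoprotein stanniocalcin 2, stood at 0.611, 0.722 and 0.542 CPM in the controls, 2.12, 1.88 and 2.44 without Runx1, 1.74, 1.88 and 3.00 without Runx2 and 2.06, 2.21 and 3.01 without both. The 3 knockout groups overlapped, and the departure was -1.63 (-2.50 to -0.77) without being called (adjusted p = 0.23). Enpp5 stood at 11.5, 11.2 and 14.1 CPM in the controls, 21.3 to 25.5 in the single knockouts and 15.7, 20.8 and 22.4 in the double, with a departure of -1.17 (-1.63 to -0.70, adjusted p = 0.103). With all 12 libraries neither passed the test over all genes. Enpp5 was called without the first double knockout library (-1.04, adjusted p = 0.0032) and Stc2 was not (-1.54, adjusted p = 0.090). Of the rest of the 16, Sp100, Msln and Tuba1a had departures of -1.135, -0.85 and 0.53 with all 12 libraries. Their intervals (-2.02 to -0.25, -1.36 to -0.34 and 0.15 to 0.91) excluded 0, but none was called. Tuba1a was called without the first double knockout library and the first control (0.58, edgeR adjusted p = 0.0091). Dpt, Igtp and Pla1a had departures of -0.40, -0.44 and -0.38, with intervals that spanned 0. Without the first double knockout library 175 genes were called the same way in both single knockouts, which then had 2.8% (Runx1) and 2.64% (Runx2) of all genes called. Of these 175 genes, 12 had a called departure (1.58% of all genes did). In 120 the interval lay within 2-fold of additivity, as it did in 73.9% of all genes, so that count does not set them apart.

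**Figure D4:**
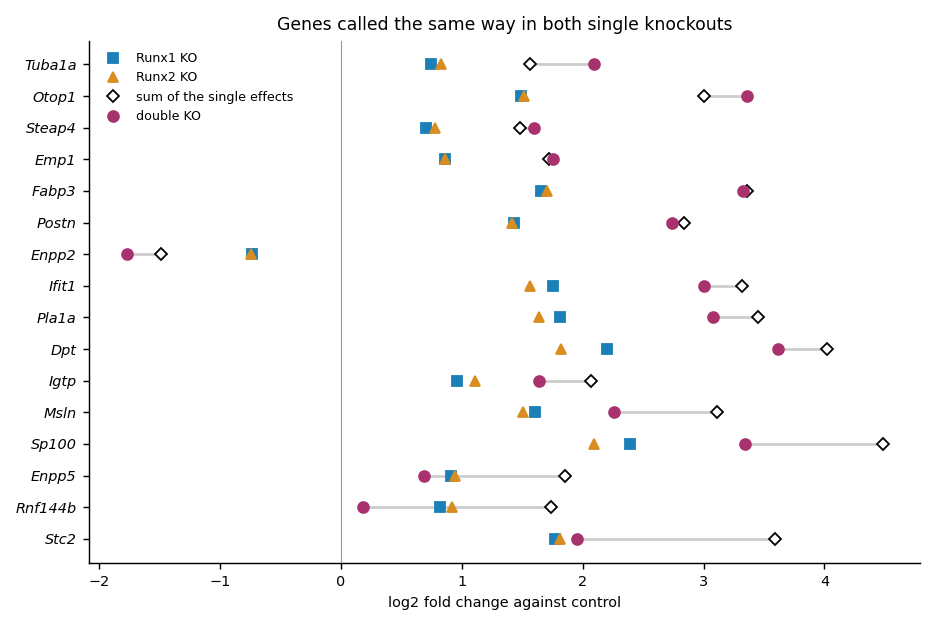
Log2 fold change against control of the 16 genes called in the same direction in both single knockouts; squares, Runx1 knockout; triangles, Runx2 knockout; diamonds, sum of the single effects; circles, double knockout, joined to the sum by a grey line. Circles lie on or near the diamonds for Emp1, Fabp3 and Postn, and far to the left of them for Enpp5, Rnf144b and Stc2.

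Genes of brown fat function and of the matrix were read as a fixed panel, and none was called in the departure with all 12 libraries. Ucp1, the uncoupling protein of thermogenesis, stood at 9.63, 21.2 and 22.0 CPM in the controls, 52.3, 45.2 and 54.4 without Runx1, 52.7, 45.01 and 47.0 without Runx2 and 59.3, 105 and 121 without both. The single knockouts overlapped each other and lay above all controls, though only the double effect was called (1.52, 1.45 and 2.43, edgeR adjusted p = 0.055, 0.090 and 3.7e-04). The lowest control and the lowest double knockout value came from the libraries that stood apart. The departure was -0.54 (-1.44 to 0.36) with all 12, -0.30 without the first double knockout and -0.01 (-0.28 to 0.26) without it and the first control.

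The departures of other thermogenic genes had intervals that spanned 0 with all 12 libraries. Prdm16, a transcriptional regulator of brown fat identity, had a departure of -0.62 (-1.29 to 0.05; -0.38 without the first double knockout), and Elovl3, a fatty acid elongase of brown fat, one of 0.57 (-0.07 to 1.21; 0.31 without it). Ppargc1a, the coactivator that drives mitochondrial biogenesis, had effects of 0.43, 0.41 and 0.87 and a departure of 0.03 (0.24 without the first double knockout). Pparg, the master regulator of fat cells, had a departure of 0.00 (-0.12 without it). Cidea, a lipid droplet protein of brown fat, was not called with all 12 libraries (-0.19) or without the first double knockout (-0.46, adjusted p = 0.087), and was called without both libraries (-0.41, adjusted p = 0.030). Fabp4, the abundant fatty acid carrier of fat cells, shows the reach of the first double knockout library: it stood at 12060 CPM there, against 4615 and 4071 in its replicates and 3143 to 4382 in the other 9. Its departure was 0.70 with that library and 0.02 without it, neither called.

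Matrix and secreted genes of the panel followed several shapes. Cxcl12, a chemokine, stood at 10.3, 7.58 and 11.7 CPM in the controls, 29.4, 29.7 and 33.2 without Runx1, 11.1, 10.01 and 8.64 without Runx2 and 18.7, 21.5 and 23.6 without both. It rose in the Runx1 knockout and in the double knockout, the Runx2 knockout overlapped the control, and the departure was -0.54 (-1.05 to -0.02; -0.46 without the first double knockout), called in neither fit. Mmp2, a matrix metalloproteinase, stood at 2.80, 5.30 and 4.22 CPM in the controls, 12.02 to 14.2 without Runx1, 8.07 to 9.12 without Runx2 and 10.5, 14.4 and 15.5 without both. The double knockout overlapped the Runx1 knockout, and the departure of -1.06 (-1.71 to -0.40) was not called by edgeR (adjusted p = 0.29; -0.91 and 0.078 without the first double knockout). Col3a1 and Col1a1, fibrillar collagen genes, had departures of 0.40 and 0.15, and Lep, the leptin gene, of 0.66. With the first double knockout library left out they were 0.55, 0.41 and 0.64, and none was called in either fit.

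**Figure D5:**
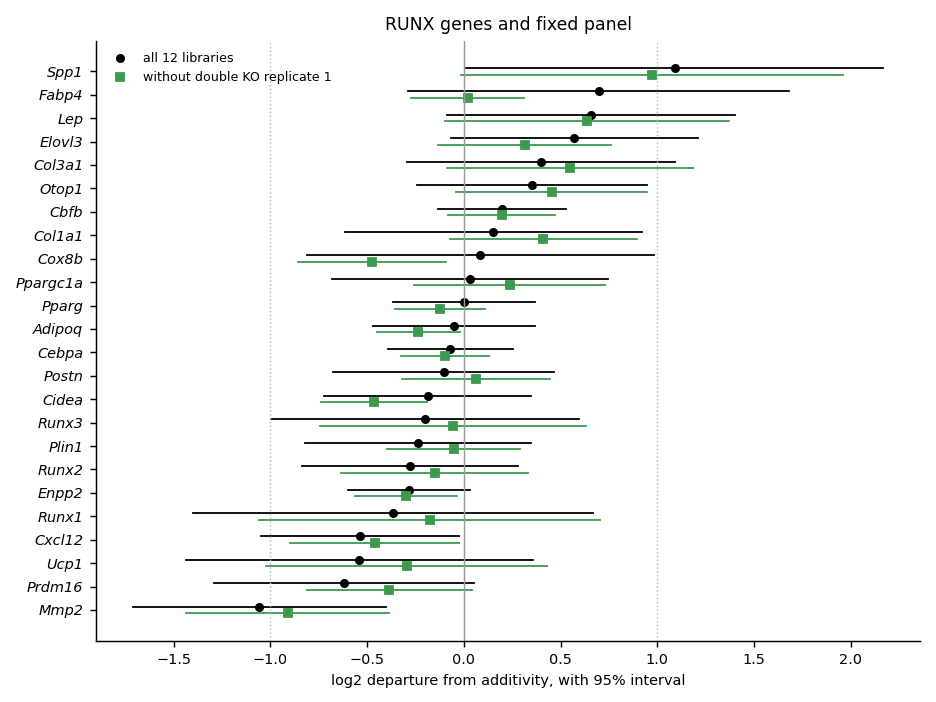
Log2 departure from additivity with its 95% interval for the RUNX genes and the panel genes, with all 12 libraries (black) and without the first double knockout library (green); dotted lines mark 2-fold. Intervals narrow without that library, the Fabp4 value moves from 0.70 to 0.02 and the Cox8b value from 0.09 to -0.47.

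Without the first double knockout library, most genes called in the departure were also called in the double knockout against the control. Of the 218, 159 were called there and in neither single knockout, a pattern that 3085 of all 13771 genes tested had. The counts in this paragraph use the libraries that gave the departure calls, so they are a description. By another count, which does not ask that the single knockouts be unchanged, 175 (80.3%) were called the same way in the double knockout against the control (26% of all genes called), the Runx2 knockout (12.8%) and the Runx1 knockout (12.9%), and 10 (4.59%) were called the same way in both single knockouts and the other way in the departure. Egr1 is in both of the last counts. The double effect lay beyond the sum, on the same side, in 96 (44%, against 36.4% of all genes), short of it in 19 (8.72%, against 38%) and on the other side of 0 in 103 (47.2%, against 25.6%). None of the genes in the next 4 paragraphs was called with all 12 libraries, and their departures there are given beside.

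Some genes of fat mobilisation and fuel choice were called below the prediction (0.937% of all genes were), 3 of 18 in lipolysis and lipid droplets and 2 of 24 in fatty acid oxidation. The medians of these lists were -0.14 and -0.05, with 4 of 18 and 6 of 24 genes above 0. Pnpla2, which encodes adipose triglyceride lipase, stood at 1452, 1722 and 1798 CPM in the controls, 1811, 1616 and 1616 without Runx1, 1581, 1461 and 1398 without Runx2 and 747, 838 and 854 without both. Pdk4, a kinase that turns cells from glucose to fat oxidation, stood at 292, 241 and 256 CPM in the controls, 260 to 288 in the single knockouts and 101, 139 and 137 in the double. For both genes every double knockout library, the first included, lay below all others. Their departures were -0.83 (edgeR adjusted p = 0.0017) and -1.01 (adjusted p = 2.8e-04) without that library, and -0.88 (0.103) and -1.13 (0.072) with it. Adrb3, the beta-3 adrenergic receptor of fat cells, stood at 61.6, 65.6 and 58.8 CPM in the controls, 38.2, 43.1 and 49.9 without Runx1, 66.6, 68.6 and 71.1 without Runx2 and 33.4, 29.9 and 25.8 without both, with a departure of -0.81 (adjusted p = 0.0077; -0.71 with all 12). Plin3, a lipid droplet coat protein, and Ehhadh, a peroxisomal oxidation enzyme, had departures of -0.55 and -0.69 (-0.63 and -0.78 with all 12).

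Genes above the prediction included sterol synthesis and cell division genes. Sqle, which encodes squalene epoxidase, stood at 182, 195 and 184 CPM in the controls, 166, 154 and 156 without Runx1, 162, 176 and 167 without Runx2 and 214, 226 and 208 without both. Each single knockout library lay below the controls and each double knockout library above them, and the departure was 0.60 (edgeR adjusted p = 0.0077; 0.60 with all 12). Lss, which encodes lanosterol synthase and whose upstream bases are printed above with the motif, stood at 188 to 206 CPM in the controls, 191 to 212 in the single knockouts and 187, 273 and 299 in the double. Its departure was 0.47 (adjusted p = 0.032) without the first double knockout library, which lay at the level of the lowest control, and 0.30 with it. Cdc20, an activator of the anaphase-promoting complex, stood at 60.9 to 67.8 CPM in the controls, 55.7 to 67.9 in the single knockouts and 130, 94.97 and 95.8 in the double, with a departure of 0.70 (adjusted p = 0.0051; 0.87 with all 12).

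H1f2, a linker histone gene, stood at 16.2, 12.4 and 14.7 CPM in the controls, 11.2 to 17.2 in the single knockouts and 66.4, 39.1 and 45.9 in the double. Nop58, a core protein of the small nucleolar ribonucleoproteins, stood at 48.3, 48.1 and 49.6 CPM in the controls, 46.0 to 54.3 in the single knockouts and 79.2, 80.0 and 79.5 in the double. In both genes the double knockout libraries lay above the other 9 with no overlap. Their departures were 1.82 and 0.67 with all 12 libraries (edgeR adjusted p = 0.079 and 0.103) and 1.57 and 0.67 without the first double knockout (adjusted p = 0.0019 and 0.0045). Jun, an AP-1 transcription factor gene, had a departure of 0.70 without that library and 0.66 with it.

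Among genes with the reverse order, Ccn1, a secreted matricellular protein gene, stood at 21.2, 16.6 and 20.7 CPM in the controls, 37.3, 41.5 and 38.4 without Runx1, 28.2, 30.9 and 25.4 without Runx2 and 28.3, 25.03 and 23.3 without both. The Runx1 knockout alone was highest, the double knockout overlapped the Runx2 knockout, and the departure was -1.23 (edgeR adjusted p = 7.3e-04; -1.14 with all 12, adjusted p = 0.064). Sema5a, a semaphorin gene, was of the double-only kind, at 11.6 to 11.99 CPM in the controls, 9.13 to 12.8 in the single knockouts and 2.44, 3.503 and 3.85 in the double. It missed the threshold narrowly with all 12 libraries (-1.67, adjusted p = 0.0501) and was called without the first double knockout (-1.52, adjusted p = 0.0019). Tgfbr2, the type II TGF-beta receptor gene, had departures of -0.83 and -1.11 without and with that library, and the first was called.

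Across the gene lists, counts of called departures with all 12 libraries can be read only against the 0.0443% of all genes called, at which 0 calls in a short list is no result about it. Of 23 interferon genes tested, 19 rose in the double knockout against the control (8.27% of all genes rose), with a median of 1.83 (all genes, 0.02). Their departure was called in 0, with a median of 0.03 and 12 of 23 above 0. Of 38 extracellular matrix genes 17 rose and 1 fell, with a median of 0.71, and the departure was called in 0, with a median of -0.08. Of 26 cell cycle genes 16 rose, with a median of 0.69, while the median departure was 0.50 with 0 called. Of all the lists, the immediate early one alone held a call with all 12 libraries, Egr1 of 16.

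Without the first double knockout library, called departures (1.58% of all genes) were 3 above and 0 below in 21 sterol synthesis genes (median 0.31), 0 above and 3 below in 18 genes of lipolysis and lipid droplets (median -0.14), 0 above and 2 below in 24 fatty acid oxidation genes (median -0.05) and 2 above and 0 below in 26 cell cycle genes (median 0.45). The median over all genes was -0.01. In the cell cycle list 25 of 26 genes had departures above 0. Interferon, matrix and respiratory chain genes had 0 calls, with medians of -0.02, 0.15 and -0.02, and the 26 genes of the RUNX family and its cofactors had 0 calls with a median of -0.14. Without the first control as well (4.58% of all genes called), the calls above and below were 8 and 1 in sterol synthesis, 0 and 5 in lipolysis and lipid droplets, 0 and 5 in fatty acid oxidation, 11 and 0 in the cell cycle and 3 and 2 in the matrix. Interferon and respiratory chain genes had 0 in that fit, and the RUNX family and cofactors had 0 above and 1 below.

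The cultures carried the markers of fat cells in every library, and several defining markers of other cell types were at or near 0: the muscle creatine kinase gene Ckm was 0 in 12 of 12 libraries and the macrophage gene Adgre1 in 10. The wider lists were not all low. Summed as CPM of the library total, without scaling, the 10 smooth muscle and pericyte markers came to 231 to 299.5 CPM over the 12 libraries and the 8 Schwann cell markers to 272 to 353 CPM, with double knockout and control ranges that overlapped. Preadipocyte and stromal markers, 10 of 16 of them with enough reads, were higher as a sum in the double knockout, though not gene by gene. Against the control 6 of the 10 lay above 0, with a median of 0.23, and 4 were called higher (8.27% of all genes). Their summed level was 919 to 1034 CPM in the double knockouts, against 644 to 782 in the controls, 729 to 812 without Runx1 and 700 to 715 without Runx2. The part of this rise in the departures was not tested, and in bulk RNA fewer cells of a type and less RNA per cell cannot be told apart. The summed adipocyte identity genes stood at 17200 to 18410 CPM in the controls, 18570 to 19460 without Runx1, 18680 to 19810 without Runx2 and 18970 to 25350 CPM in the double knockouts. The double knockouts overlapped the single knockouts, and Fabp4, which was far higher in the first double knockout library than in its replicates, is a member of that list.

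Genes that respond to RUNX overexpression were also read as sets chosen in other cultures, in which the mRNA of each factor also rose when the other was overexpressed. Of 1612 genes at least 2-fold higher with each factor, 1130 were tested here, and in the double knockout against the control 345 of these rose and 17 fell (32% called, against 15.3% of all genes), with a median of 0.61. Their departure was called in 0, with a median of 0.11 (0.0443% of all genes were called). It was called, with the first double knockout library left out, in 15 above and 3 below (1.54%, near the 1.58% of all genes), with a median of 0.14. Of 822 genes at least 2-fold lower with each factor, 821 were tested, and 55 rose and 183 fell in the double knockout (29%). Their departure was called in 1 above and 3 below the prediction (0.487%), with a median of -0.23, and without the first double knockout library in 6 above and 47 below (6.46%, against 1.58% of all genes), with a median of -0.18.

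A gene that was not called is not thereby additive. The median standard error of a departure was 0.28 with all 12 libraries, and the whole 95% interval lay within 2-fold of additivity for 7249 genes, 53.5% of those tested. For the 2070 genes called in the double knockout, that share was 54.6%. Without the first double knockout library the median standard error was 0.18 and the share rose to 73.9%. For the remaining genes the interval reached a 2-fold departure in at least 1 direction.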

How the data were processed

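RNA-seq libraries of the 12 knockout cultures were read from 1 table of gene counts deposited by the authors, who used fastp, STAR, featureCounts and mm39, per the submitters' processing notes; strand and pair settings are not given in the sources used here. Totals were 28092201 to 35969810 per library, and 72.6% to 79.4% of the values from 1 to 19 were even. No pair of replicates agreed within sampling noise. Counts were filtered with filterByExpr, scaled by TMM and fitted with edgeR 4.0.16 (R 4.3.3; robust quasi-likelihood, 1 mean per group), with Benjamini-Hochberg adjustment over all genes and calls at an adjusted p under 0.05. The code was tested on simulated data. Alternatives used DESeq2 1.42.0 and limma 3.58.1. Transcript length is that of the longest GENCODE transcript on GRCm38, for 97.5% of tested genes. Replicate numbers were not used as pairs in the main fit. Correlations of same-numbered deviations ran from -0.15 to 0.22, over 0.1 in 4 of 18 pairs, and were 0.19 for the first control and first double knockout. For 7 of 12 libraries the best match in another group had the same number.

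Genes named were the RUNX genes and a fixed panel, called departures (up to 12 in each direction, mean CPM of at least 1; where under 5 were called, the 5 of lowest p) and up to 3 called members per list in each direction; the genes described by their effects in both single knockouts were all those called there. Members and lists were chosen with earlier results of these data known.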

Additional observations from a re-analysis of the deposited data

Results flagged for a closer look

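In 6 genes the effect of 1 knockout differed with the presence of the other gene, by the test of that difference in edgeR with all 12 libraries (adjusted p under 0.05). The log2 differences were -1.55 for Rnf144b, -1.50 for Egr1, -1.37 for Pik3ip1, -1.23 for Angptl4, -1.15 for Tcp11l2 and 1.11 for Ddit4. For Rnf144b, knocking out Runx1 raised the level with Runx2 present, whereas in the Runx2 knockout it was followed by a lower level. The same reading holds with the genes exchanged, since the contrast is symmetric.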

How the results depend on the processing

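Genes called in the departure numbered 202 with the DESeq2 test and 13 with no count filter, against 6. They numbered 6 with limma voom, 6 with DESeq2 size factors in edgeR, 8 with a stricter filter and 9 with library totals. The DESeq2 test gave 299 for the summed single effects, 220 and 197 for the Runx1 and Runx2 knockouts, and 1683 and 1913 for the double knockout against the Runx2 and Runx1 knockouts. limma voom gave 32, 37 and 11 for the sum and the single knockouts, and fits of each pair of groups alone gave 195, 105 and 379 for the Runx1, Runx2 and double knockouts. The replicate block left 1 departure, and 32 and 12 calls in the Runx1 and Runx2 knockouts; 7 of 12 libraries matched their own number best. Chosen after the data were seen, the fit without both libraries that stand apart gave 628, 767, 556, 843, 4335, 3059 and 3168 calls (departure, sum, Runx1, Runx2, double, double against Runx2, double against Runx1), and voom with sample quality weights gave 1035, 962, 823, 809, 5629, 3694 and 4747. Leaving out 1 library in turn gave 0 to 218, 11 to 542, 4 to 386, 0 to 364, 1050 to 3584, 205 to 1768 and 176 to 1952. The cause was not tested.
The 6 called genes kept their direction in all 126 refitted values and their call in 77. Of 28 other genes, not called in the main fit, 24 of 588 values kept their direction and were called. Another 43 of the 588 crossed 0, none of them called. Without both libraries the values that crossed 0 were Runx1 0.11, Runx3 0.16, Cox8b -0.37, Pparg -0.050, Fabp4 -0.10 and Plin1 0.11. With sample weights they were Runx2 0.021, Runx3 0.024, Cox8b -0.33, Pparg -0.046, Fabp4 -0.028 and Plin1 0.044. Ppargc1a gave -0.034 with library totals, -0.0044 with no filter and -0.00051 with voom; Cox8b -0.041 with totals and -0.065 with voom. Pparg gave -0.00078 with DESeq2, -0.00075 with its size factors, -0.093 with totals, -0.041 with no filter, -0.0065 with a stricter one and -0.012 with voom. Leaving out 1 library gave -0.20 to 0.24 for Ppargc1a, -0.47 to 0.30 for Cox8b, -0.12 to 0.044 for Pparg, -0.092 to 0.41 for Col1a1 and -0.31 to 0.062 for Postn.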

Other observations

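The call for the panel gene Mmp2 depended on the test and the libraries: the DESeq2 test gave an adjusted p of 0.048 and the edgeR test 0.29 with all 12 libraries, and edgeR gave 0.078 without the first double knockout and 0.046 without that library and the first control. Mapk11, a p38 kinase gene, stood at 2.66, 2.98 and 2.77 CPM in the controls, 1.95 to 2.71 CPM in the single knockouts and 5.52, 4.37 and 5.47 CPM in the double knockouts. Its departure was 1.53 with all 12 libraries (edgeR adjusted p = 0.079) and 1.46 without the first double knockout (adjusted p = 0.021). Dpyd, which encodes an enzyme of pyrimidine breakdown, had the reverse order at low levels, with 0.301 to 0.503 CPM in the controls, 1.06 to 1.79 in the single knockouts and 0.977, 0.808 and 0.502 in the double. Its departure was -2.73 with all 12 libraries (adjusted p = 0.103) and -2.95 without the first double knockout (adjusted p = 0.017).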
